A study of Mus musculus with 6 samples.

Results

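The transcripts of 8 genes that make, load, take up and break down GABA, or that set the chloride gradient its receptors draw on, were measured in the cortex of adult and aged mice. The genes were chosen by name and role, with no measured value in the rule, though earlier results of these data were known. They were 8 of the 38355 genes listed and 8 of the 17120 that passed the filter on low counts. Gad1 and Gad2 encode the glutamate decarboxylases, Slc32a1 the vesicular GABA transporter VGAT, Slc6a11 the transporter GAT-3, Abat the GABA transaminase, Aldh5a1 the succinate semialdehyde dehydrogenase, and Slc12a5 and Slc12a2 the chloride cotransporters KCC2 and NKCC1. Other transporters of the plasma membrane were not all analysed here.

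GABA is the main inhibitory transmitter of the adult cortex. Interneurons make it from glutamate with an enzyme that needs pyridoxal phosphate, VGAT packs it into synaptic vesicles, and after release it is taken back into neurons and astrocytes, where transaminase and dehydrogenase pass its carbon to the citric acid cycle. KCC2 carries chloride out of mature neurons and NKCC1 carries it into cells, so the balance between them sets which way chloride flows when a GABA-A receptor opens.

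The study asked how ageing changes gene expression in the whole cortex. Polyadenylated RNA of cortical hemispheres was sequenced from C57BL/6 mice, a wild-type strain for which the labels name no other allele and no treatment, in 3 samples of 6 months and 3 of 16 months. The age label and title of each younger sample read 6 months, while the housing text shared by all samples gives a younger age of 3 months, and the labels do not say whether a sample was 1 animal or a pool. Levels are given as CPM, counts scaled to a common library total by TMM, and differences as the log2 fold change of 16 over 6 months with the standard error (SE) of edgeR's quasi-likelihood fit, with p-values adjusted over all genes tested by the Benjamini-Hochberg method and called under 0.05.

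Total counts on genes ran from 29797253 to 46519280 per sample. A floor of 3 counts thus corresponded to between 0.0645 and 0.101 CPM, far below each of the 8 genes. Shox2, a thalamic marker named below, lay near this floor at 6 months, at 0.105 ± 0.0253 CPM (SD, n = 3), and read 1.74 ± 0.257 CPM at 16 months. The samples of 16 months stood apart from one another by base composition. Over all genes, the deviation from the group mean correlated with the GC content of the transcript at r = 0.588 in replicate 1 and r = -0.582 in replicate 2 of 16 months, against -0.0545 in replicate 3 and between -0.130 and 0.160 in the samples of 6 months. Markers of excitatory cortical neurons were abundant, with Slc17a7, the vesicular glutamate transporter VGLUT1, at 976 ± 43.4 CPM (SD, n = 3) at 6 months and 1091 ± 148 CPM at 16 months. Of 9 thalamic markers tested, 5 were called higher at 16 months, where 1.67% of all genes were called in either direction. The summed level of the list lay between 100 and 104 CPM at 6 months and between 133 and 139 CPM at 16 months. The part of these thalamic markers in the differences of the 8 genes was not tested. In RNA from whole tissue, fewer cells of a type and less RNA per cell cannot be told apart.

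Across the 8 genes the differences between the ages were small, mostly upward, and did not pass the test. None of the 8 was called, against 1.67% of all genes tested (286 of 17120). The level was higher at 16 months in 7 of 8, where 50.3% of all genes had a positive fold change, and the median log2 fold change was 0.15 against 0.0014 over all genes. At an unadjusted p under 0.05 there were 4 of 8, Gad1, Gad2, Slc6a11 and Abat, against 17.4% of all genes. In 4 of 8, Gad1, Slc6a11, Abat and Aldh5a1, every sample of 16 months lay above every sample of 6 months, where 23.7% of all genes had groups that did not overlap in one direction or the other. The DESeq2 Wald test with Benjamini-Hochberg adjustment called 2 of 8, Slc6a11 and Abat, against 3.03% of the genes it tested.

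**Figure D1:**
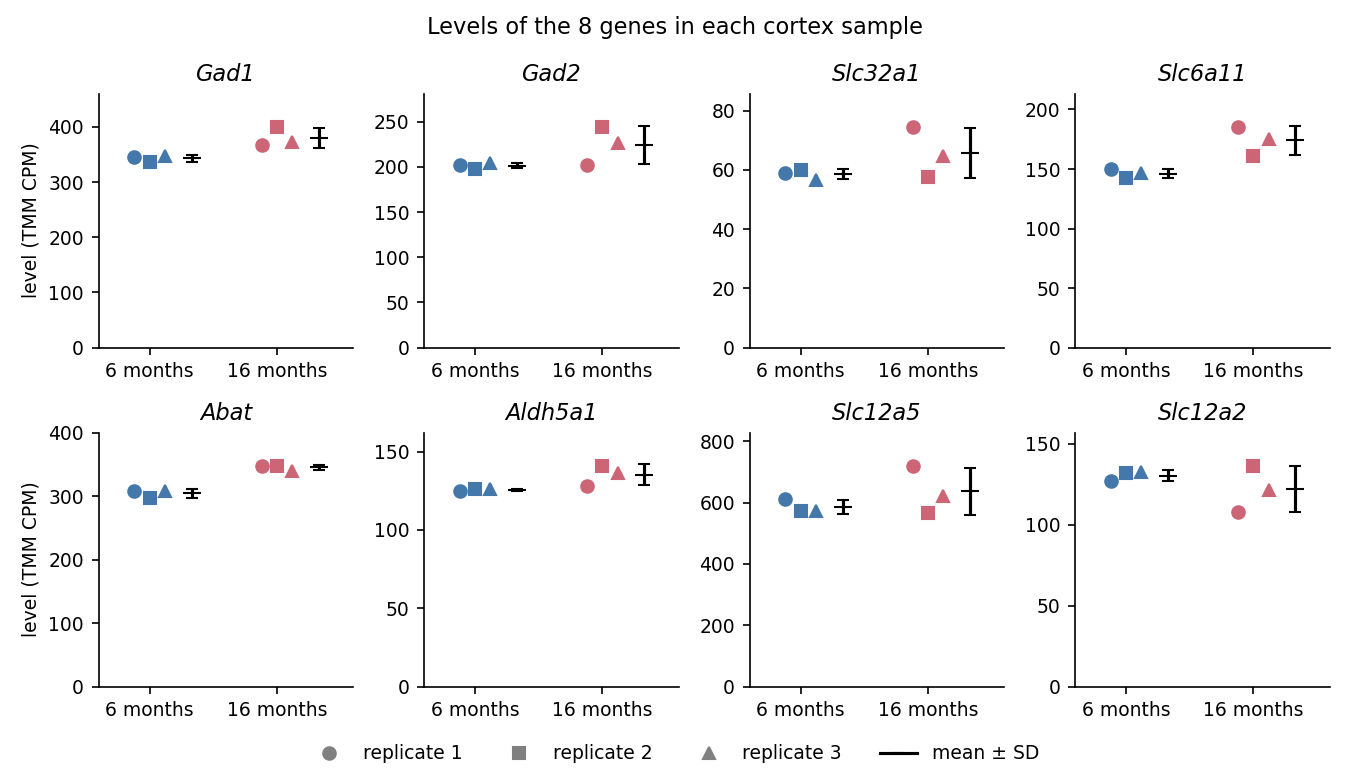
Level of each of the 8 genes in every sample, in TMM-scaled CPM from 0 on the vertical axis, by age on the horizontal axis. Points are samples, marked by replicate number, and the black bars give the mean ± SD of 3; at 16 months the points lie farther apart than at 6 months in 7 of 8 genes on the log2 scale, Abat being the exception.

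Mean levels at 6 months were also ordered per kilobase of the exons of each gene, merged over its annotated transcripts. Slc12a5 at 78.6, Gad1 at 45.0, Abat at 39.3 and Gad2 at 34.3 CPM per kb came first. Slc6a11 at 29.0, Aldh5a1 at 22.3, Slc32a1 at 20.96 and Slc12a2 at 11.9 CPM per kb followed. Over all 6 samples the ranges of the neighbours Gad1 and Abat overlapped, as did those of Abat and Gad2, of Gad2 and Slc6a11, and of Aldh5a1 and Slc32a1. Slc12a5 lay above and Slc12a2 below the other genes in every sample. Of the 8 genes, 4 lie on chromosome 2.

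The upstream sequences of the genes that make, load and take up GABA are shown because these genes are described together below. They also differ in matches to the letters of promoter elements. They are the 250 bases before the RefSeq start site on GRCm38.p6, all on the plus strand and written 5′ to 3′: chr2:70561879-70562128 for Gad1, chr2:22622077-22622326 for Gad2, chr2:158610508-158610757 for Slc32a1 and chr6:114130991-114131240 for Slc6a11. Of the 8 genes, 6 matched the RefSeq promoter table. The Gad1 window lies within the span of the annotated gene given below, so it does not cover the most upstream annotated start. The end of the Gad2 window also lies within the annotated span of its gene. Capitals mark matches on either strand to TATAAA, the letters of a TATA box, to CCAAT, those of a CCAAT box, to GGGCGG, those of a GC box, to TAATTA, a core that homeodomain proteins bind, and to TGACGTCA, the cAMP response element.
Gad1: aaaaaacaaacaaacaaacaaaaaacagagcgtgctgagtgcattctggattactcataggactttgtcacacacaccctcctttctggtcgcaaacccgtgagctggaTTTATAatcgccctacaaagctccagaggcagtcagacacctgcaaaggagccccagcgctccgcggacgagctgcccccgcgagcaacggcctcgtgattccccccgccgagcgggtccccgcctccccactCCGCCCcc
Gad2: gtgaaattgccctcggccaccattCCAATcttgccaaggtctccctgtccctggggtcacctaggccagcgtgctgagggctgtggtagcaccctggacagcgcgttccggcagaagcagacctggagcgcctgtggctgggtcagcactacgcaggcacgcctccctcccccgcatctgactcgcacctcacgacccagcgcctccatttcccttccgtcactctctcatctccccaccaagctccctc
Slc32a1: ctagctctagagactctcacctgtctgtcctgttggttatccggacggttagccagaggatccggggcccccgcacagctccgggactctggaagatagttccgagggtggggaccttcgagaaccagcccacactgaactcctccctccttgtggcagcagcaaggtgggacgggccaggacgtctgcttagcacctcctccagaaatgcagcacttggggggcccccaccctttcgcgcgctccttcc
Slc6a11: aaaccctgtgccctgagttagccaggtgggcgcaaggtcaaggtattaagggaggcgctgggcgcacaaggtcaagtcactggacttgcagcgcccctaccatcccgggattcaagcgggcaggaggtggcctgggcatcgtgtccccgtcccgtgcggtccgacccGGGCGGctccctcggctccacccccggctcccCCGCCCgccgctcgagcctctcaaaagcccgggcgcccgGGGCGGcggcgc

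Gad1 held 1 TATAAA match, a sequence found in 12.4% of 32851 mouse promoters of the same length, and 1 GGGCGG match, found in 32.7%. Gad2 held 1 CCAAT match, found in 33.8% of promoters, and no TATAAA. Slc32a1 held none of these letters in its window. Slc6a11 held 3 GGGCGG matches, and its 25 CpG pairs were more than in 89.3% of promoters, against 17 in Gad1, 13 in Gad2 and 12 in Slc32a1 and a median of 6. The sequence CANNTG, an E-box searched without capitals, occurred in all 4 windows and in 66.2% of promoters. TAATTA, found in 4.84% of promoters, and TGACGTCA, found in 1.55%, occurred in none of the 4. A match describes letters and does not show that a factor was bound.

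Gad1, which encodes GAD67, the decarboxylase found throughout the interneuron, lies at chr2:70553072-70602014 on the plus strand of the mm10 genome. Its level was 346, 336 and 348 CPM in replicates 1 to 3 of 6 months and 367, 401 and 374 CPM in those of 16 months. All 3 samples of 16 months lay above all 3 of 6 months, with replicate 2 of 16 months the highest. The means of 343 ± 6.67 and 380 ± 17.8 CPM (SD, n = 3) gave a log2 fold change of 0.15 (SE 0.053, 95% interval 0.030 to 0.26), a difference of 10.8%, and an adjusted p of 0.193 in edgeR. Without replicate 1 of 16 months Gad1 passed the threshold, with 0.17 on the log2 scale and an adjusted p of 0.0473, and without replicate 2 it had 0.11 and an adjusted p of 0.125. Over all alternative settings its adjusted p in edgeR or DESeq2 ran from 0.00809 to 0.540.

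Gad2 encodes GAD65, the decarboxylase bound to synaptic vesicles in terminals, and lies at chr2:22622205-22693874 on the plus strand. The samples of 6 months read 202, 198 and 204 CPM, and those of 16 months 202, 245 and 227 CPM. Replicate 1 of 16 months fell within the range of the younger group while the other 2 samples lay above it. The log2 fold change was 0.16 (SE 0.069, 95% interval 0.0026 to 0.31) with an adjusted p of 0.278 in edgeR. Without replicate 1 of 16 months it was 0.23 with an adjusted p of 0.0128, and without replicate 2 it was 0.09 with an adjusted p of 0.299, within a range over all alternatives of 0.0019 to 0.602.

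The balance of both decarboxylases did not differ detectably between the ages. The ratio of Gad1 to Gad2 within a sample was 1.70 ± 0.0094 at 6 months and 1.70 ± 0.0995 at 16 months (SD, n = 3), with p = 1.0 in a two-sided exact permutation test of the log2 ratio. With 3 samples against 3 this test cannot go below 0.1, and 7 ratios were compared.

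Slc32a1, at chr2:158610767-158615748 on the plus strand, loads GABA and glycine into synaptic vesicles and was the gene of the 8 with the fewest counts, between 1800 and 2771 per sample. Its level was 59.1, 60.0 and 56.7 CPM at 6 months and 74.6, 57.8 and 64.7 CPM at 16 months. The groups overlapped, because replicate 2 of 16 months lay among the younger samples while replicate 1 was the highest of all. The log2 fold change was 0.17 (SE 0.084, 95% interval -0.023 to 0.35) with an adjusted p of 0.346 in edgeR. Without replicate 2 of 16 months it was 0.25 with an adjusted p of 0.0276, and without replicate 1 it was 0.065 with an adjusted p of 0.566. The adjusted p of all alternatives spanned 0.0227 to 0.664. An antisense gene, Gm14205, overlaps 24.9% of the exon bases of Slc32a1, and without a stated strand setting the reads of both cannot be told apart there.

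Set against the decarboxylases, VGAT transcript showed no detectable difference. The ratio of Slc32a1 to the sum of Gad1 and Gad2 was 0.108 ± 0.0048 at 6 months and 0.109 ± 0.0208 at 16 months (SD, n = 3; two-sided exact permutation p = 0.9). The spread at 16 months, from 0.0896 in replicate 2 to 0.131 in replicate 1, was wider than the difference of the means.

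Slc6a11 encodes GAT-3, the transporter by which astrocytes take up GABA in the adult cortex, and showed the largest difference of the 8 genes in the fit of all samples. It lies at chr6:114131241-114249952 on the plus strand. Its level was 150, 142 and 146 CPM at 6 months and 186, 161 and 175 CPM at 16 months, and the lowest older sample lay above the highest younger one. The means of 146 ± 3.72 and 174 ± 12.3 CPM (SD, n = 3) gave a log2 fold change of 0.25 (SE 0.061, 95% interval 0.11 to 0.39), a difference of 18.9%, with an adjusted p of 0.0784 in edgeR and 0.0177 in DESeq2. Without replicate 1 of 16 months the adjusted p in edgeR was 0.0301, without replicate 2 it was 0.00466, and all alternatives spanned 0.000121 to 0.333.

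Aldh1l1, a folate enzyme used as a marker of astrocytes, had a fold change close to that of Slc6a11, and neither passed the edgeR test of all samples. Its level was 72.8 ± 1.27 CPM at 6 months and 86.6 ± 6.61 CPM at 16 months (SD, n = 3), a log2 fold change of 0.25 with an adjusted p of 0.0827 in edgeR. The ratio of Slc6a11 to Aldh1l1 was 2.01 ± 0.0164 at 6 months and 2.01 ± 0.0427 at 16 months (exact permutation p = 0.9, two-sided). Of the 10 astrocyte markers, Gfap, the filament protein of reactive astrocytes, was the 1 called, and it was lower at 16 months (259 ± 5.24 to 187 ± 9.89 CPM, log2 fold change -0.47, adjusted p = 0.00332 in edgeR). Over all genes 1.67% were called in edgeR. The other markers of the list had log2 fold changes on both sides of 0. Aldh1l1 had the highest, and S100b, named after its values were seen, had -0.25. With offsets for GC content and length, described below, 4 of the list were called higher and 3 lower, against 14.2% of all genes called. DESeq2 called 4 of the list, against 3.03% of the genes it tested. The summed level lay between 2081 and 2112 CPM at 6 months and between 2052 and 2143 CPM at 16 months.

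Abat, the transaminase that removes the amino group of GABA in mitochondria, had the tightest values among the older samples. It lies at chr16:8513429-8621568 on the plus strand. The samples of 6 months read 308, 297 and 309 CPM and those of 16 months 348, 347 and 341 CPM, with a gap between the groups. The means were 305 ± 6.55 and 346 ± 4.20 CPM (SD, n = 3), a log2 fold change of 0.18 (SE 0.047, 95% interval 0.076 to 0.29) or 13.4%. The adjusted p was 0.0934 in edgeR and 0.0314 in DESeq2, and in edgeR it was 0.0354 without replicate 1 of 16 months and 0.0281 without replicate 2, with all alternatives between 0.0019 and 0.396.

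Aldh5a1, which oxidises the semialdehyde that Abat releases to succinate, lies at chr13:24907579-24937661 on the minus strand. Its level was 125, 126 and 126 CPM at 6 months and 128, 141 and 137 CPM at 16 months. The groups did not overlap, but replicate 1 of 16 months lay close above the younger group. The log2 fold change was 0.11 (SE 0.053, 95% interval -0.012 to 0.23) with an adjusted p of 0.337 in edgeR. Antisense genes cover 14.1% and 3.59% of its exon bases. The ratio of Abat to Aldh5a1 was 2.42 ± 0.0621 and 2.56 ± 0.138 at the younger and older age (SD, n = 3; two-sided exact permutation p = 0.2).

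Slc12a5 encodes KCC2, the neuronal potassium-chloride cotransporter, at chr2:164960802-164999731 on the plus strand, and was the most abundant of the 8 genes. Its samples of 6 months read 612, 572 and 572 CPM and those of 16 months 721, 567 and 623 CPM. Replicate 2 of 16 months was the lowest of all 6 and replicate 1 the highest. The log2 fold change was 0.12 (SE 0.081, 95% interval -0.059 to 0.30) with an adjusted p of 0.484 in edgeR, and it was 0.023 without replicate 1 and 0.20 without replicate 2 of 16 months.

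Slc12a2, which encodes the sodium-potassium-chloride cotransporter NKCC1, lies at chr18:57878678-57946821 and was the 1 gene of the 8 with a lower mean at 16 months. The levels were 127, 132 and 132 CPM at 6 months and 108, 137 and 121 CPM at 16 months. The older samples lay on both sides of the younger ones. The log2 fold change was -0.097 (SE 0.079, 95% interval -0.27 to 0.079) with an adjusted p of 0.571 in edgeR, and it was -0.017 without replicate 1 and -0.19 without replicate 2 of 16 months.

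The ratio of Slc12a5 to Slc12a2 was 4.83, 4.33 and 4.32 at 6 months and 6.67, 4.16 and 5.13 at 16 months. The mean was higher at 16 months (5.32 ± 1.27 against 4.49 ± 0.293, SD, n = 3), but the groups overlapped and the two-sided exact permutation p was 0.4. The log2 difference of 0.22 became 0.041 without replicate 1 of 16 months (exact permutation p = 0.7), 0.38 without replicate 2 (exact permutation p = 0.1, with 3 samples against 2) and 0.18 with offsets for GC content and length (exact permutation p = 0.1).

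Between replicates 1 and 2 of 16 months the difference in level of the 8 genes followed the GC content of their transcripts closely, with the neighbours Gad1 and Aldh5a1, and Gad2 and Slc12a2, out of order. The log2 level in replicate 1 minus that in replicate 2 was 0.37 for Slc32a1 with 61.9% GC, 0.34 for Slc12a5 with 58.3%, 0.20 for Slc6a11 with 53.9% and 0.0041 for Abat with 50.2%. It was -0.13 for Gad1 with 47.3%, -0.14 for Aldh5a1 with 48.3%, -0.27 for Gad2 with 44.1% and -0.34 for Slc12a2 with 44.2%. All 4 genes over 50% GC were highest in replicate 1 among the older samples and all 4 under 50% were highest in replicate 2. The correlation was r = 0.979 over the 8 genes, given as a description of 1 pair of libraries that all genes share. What set the 2 libraries apart was not tested.

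**Figure D2:**
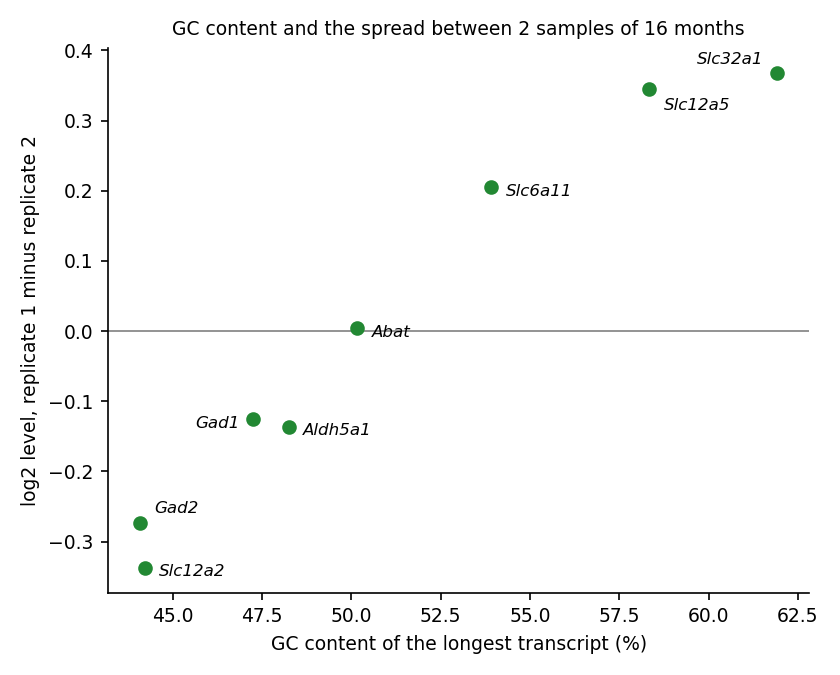
GC content of the longest annotated transcript in percent, on the horizontal axis, against the log2 level in replicate 1 minus that in replicate 2 of 16 months, on the vertical axis, with 1 point for each gene. The points run from -0.34 for Slc12a2 at 44.2% GC to 0.37 for Slc32a1 at 61.9% GC.

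When the counts were fitted with offsets that remove, in each sample, the trend of all genes with GC content and gene length, the SD of the older samples was smaller in 7 of 8 genes, Abat being the exception (4.20 without offsets and 5.33 CPM with them). Slc12a5 went in log2 fold change from 0.12 to 0.066, a move of over 1.5 times, and Slc32a1 from 0.17 to 0.12. With offsets the 3 samples of 16 months read 64.0, 65.0 and 64.3 CPM for Slc32a1 against 59.0, 61.8 and 57.5 CPM at 6 months. For Gad2 they read 215, 232 and 227 CPM against 203, 196 and 203 CPM. For Slc12a5 they read 630, 621 and 617 CPM against 607, 591 and 587 CPM. The groups then did not overlap in 7 of 8 genes, Slc12a2 being the exception, where 32.4% of all genes had groups that did not overlap with offsets.

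In the fit with offsets 5 of 8 genes were called higher at 16 months, against 14.2% of all genes called in either direction (2425 of 17120). The adjusted p of edgeR was 0.0154 for Gad1, 0.00415 for Gad2, 0.0442 for Slc32a1, 0.000367 for Slc6a11 and 0.00432 for Abat, with log2 fold changes of 0.12, 0.16, 0.12, 0.21 and 0.14. Aldh5a1, Slc12a5 and Slc12a2 did not pass, with 0.10, 0.066 and -0.11 and adjusted p of 0.0681, 0.117 and 0.0977. With replicate 3 of 16 months as the only older sample, the 1 with little GC trend, edgeR called Gad2, Slc6a11 and Abat, with log2 fold changes of 0.17, 0.26 and 0.16, against 9.85% of all genes called (1786 of 18140). That fit takes the spread from the younger samples alone. In every fit 7 of the 8 genes kept a positive fold change and Slc12a2 a negative one.

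**Figure D3:**
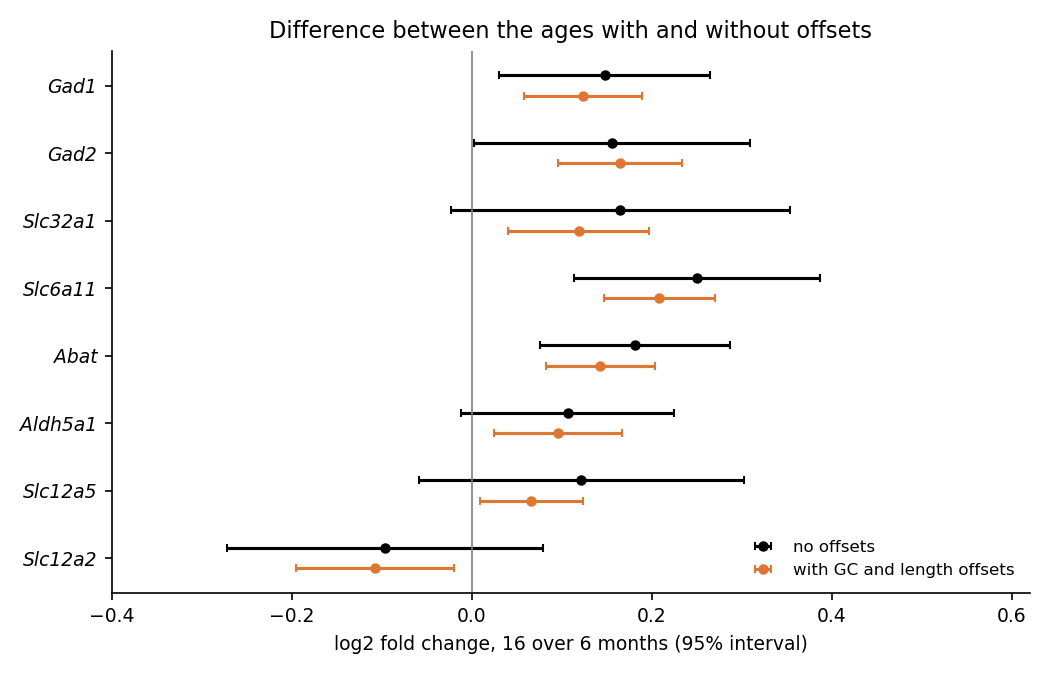
Log2 fold change of 16 over 6 months for each gene on the horizontal axis, with its 95% interval, from the fit without offsets (black) and that with offsets for length and GC content (orange). The intervals narrow with offsets, and those of Slc32a1, Aldh5a1, Slc12a5 and Slc12a2, which hold 0 without offsets, lie to one side of it, before adjustment for the number of genes.

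Genes were ranked by how close their profile over the 6 samples lay to the mean of Gad1, Gad2 and Slc32a1. Only genes whose SD on the log2 scale reached that of this mean were ranked, so flatter genes were left out. The closest to the mean profile were Nsf, the ATPase that takes apart fusion complexes of vesicles, Mmd2 and Atrn. Their root mean square distance from it was 0.0070, 0.0079 and 0.0115 on the centred log2 scale, where the mean profile itself had an SD of 0.084. The mean evens out opposite differences between replicates 1 and 2 of 16 months, 0.37 for Slc32a1, -0.13 for Gad1 and -0.27 for Gad2. Being close to it is thus not being close to each of the 3 genes. Nsf, Mmd2 and Atrn were taken from the 17120 genes tested, of which fewer were ranked. Flatter genes and the genes chosen at the outset had been left out. The SD was 0.0842 for Nsf, 0.0878 for Mmd2 and 0.0858 for Atrn, and their adjusted p lay between 0.125 and 0.137 in edgeR.

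Interneuron markers held 1 call, where 1.67% of all genes were called. Of 15 tested, Pvalb, the calcium buffer of fast-spiking interneurons, was the 1 called, and it was lower at 16 months (42.6 ± 1.03 to 18.4 ± 0.761 CPM, log2 fold change -1.21, adjusted p = 1.49e-05 in edgeR). The median log2 fold change of the list was -0.015, and Cnr1 and Lamp5, the most abundant of it, had -0.097 and -0.048. With offsets 2 of the list were called higher and 2 lower, Pvalb among the latter, against 14.2% of all genes called. The summed level, Pvalb included, lay between 1119 and 1135 CPM at 6 months and between 1069 and 1085 CPM at 16 months. The ratio of Pvalb to Gad1 was 0.126, 0.124 and 0.123 at 6 months and 0.0478, 0.0466 and 0.0508 at 16 months, a fold of 0.390. The groups did not overlap, which gave the smallest p the exact permutation test allows, 0.1, or 0.7 adjusted over the 7 ratios.

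The ratio of both decarboxylases to Slc17a7 was 0.559 ± 0.0204 at 6 months and 0.564 ± 0.110 at 16 months (SD, n = 3; two-sided exact permutation p = 1.0). The 10 excitatory markers held no call in edgeR without offsets, with a median log2 fold change of 0.087, and Camk2a, the abundant synaptic kinase, had 0.13. With offsets 2 of the list, Slc17a7 among them, were called higher and 1 lower, against 14.2% of all genes called. Among the older samples the ratio ran from 0.456 in replicate 1 to 0.676 in replicate 2, on either side of the younger range of 0.535 to 0.573.

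**Figure D4:**
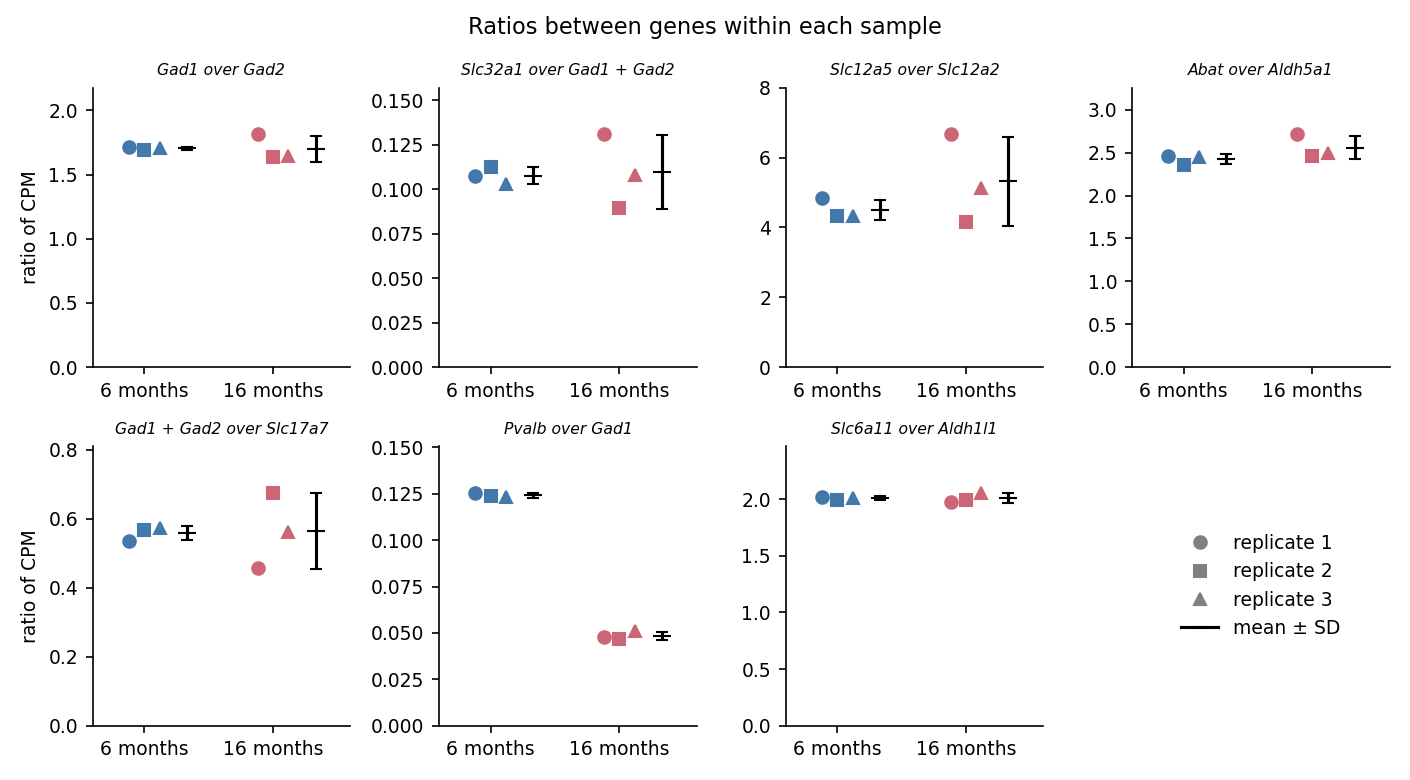
Ratio of the CPM of 1 gene or sum of genes to another within each sample, from 0 on the vertical axis, by age on the horizontal axis, with the mean ± SD of 3. Of the 7 ratios, Pvalb over Gad1 has groups that do not overlap, and in all 7 the SD is larger at 16 months.

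The other genes of the pathway held no call. A list held 40 genes that supply glutamate and cofactor, move or break down GABA, handle chloride and bicarbonate, or phosphorylate the cotransporters. Of these, 39 were tested, and 0 were called in edgeR, where 1.67% of all genes were called. An unadjusted p under 0.05 in edgeR was found for 6, against the 17.4% of all genes given above. DESeq2 called 2, against 3.03% of the genes it tested. The fold change was positive in 23 of 39, against 50.3% of all genes, with a median log2 value of 0.034. With offsets 3 were called higher and 6 lower, against 14.2% of all genes called.

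Among 13 genes of glutamate and glutamine supply the median log2 fold change was 0.065. Slc1a2, the main glutamate transporter of astrocytes, had 4129 ± 181 and 4597 ± 341 CPM at 6 and 16 months (SD, n = 3; log2 fold change 0.15, adjusted p = 0.243 in edgeR), and Glul, glutamine synthetase, had 1755 ± 33.4 and 1788 ± 66.8 CPM. Pdxk, a kinase in the supply of the cofactor of the decarboxylases, had a log2 fold change of 0.14. Of the 8 other enzymes that make or break down GABA and its products, 7 had positive values with a median of 0.055, among them Sdha at 0.051 and Ogdh at 0.11, subunits of citric acid cycle enzymes.

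Slc6a13, the transporter GAT-2 of the meninges, went the other way from Slc6a11, with 8.15 ± 0.281 CPM at 6 months and 5.95 ± 0.877 CPM at 16 months (SD, n = 3), a log2 fold change of -0.45 and an adjusted p of 0.0692 in edgeR. Slc6a12, the betaine transporter, was at 0.598 and 0.709 CPM. Slc6a13 was 1 of the 2 genes DESeq2 called, and the other, Slc1a3, a glutamate transporter of astrocytes named here after its values were seen, had a log2 fold change of 0.20. Of 9 other genes that handle chloride and bicarbonate, not all of them transporters or channels, 3 had positive values. Their median was -0.022, and Slc4a10 and Slc4a3 had -0.13 and -0.047. The 5 kinases that act on the cotransporters had a median of -0.082, with Wnk1 at 0.041 and Wnk2 at 0.10.

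**Figure D5:**
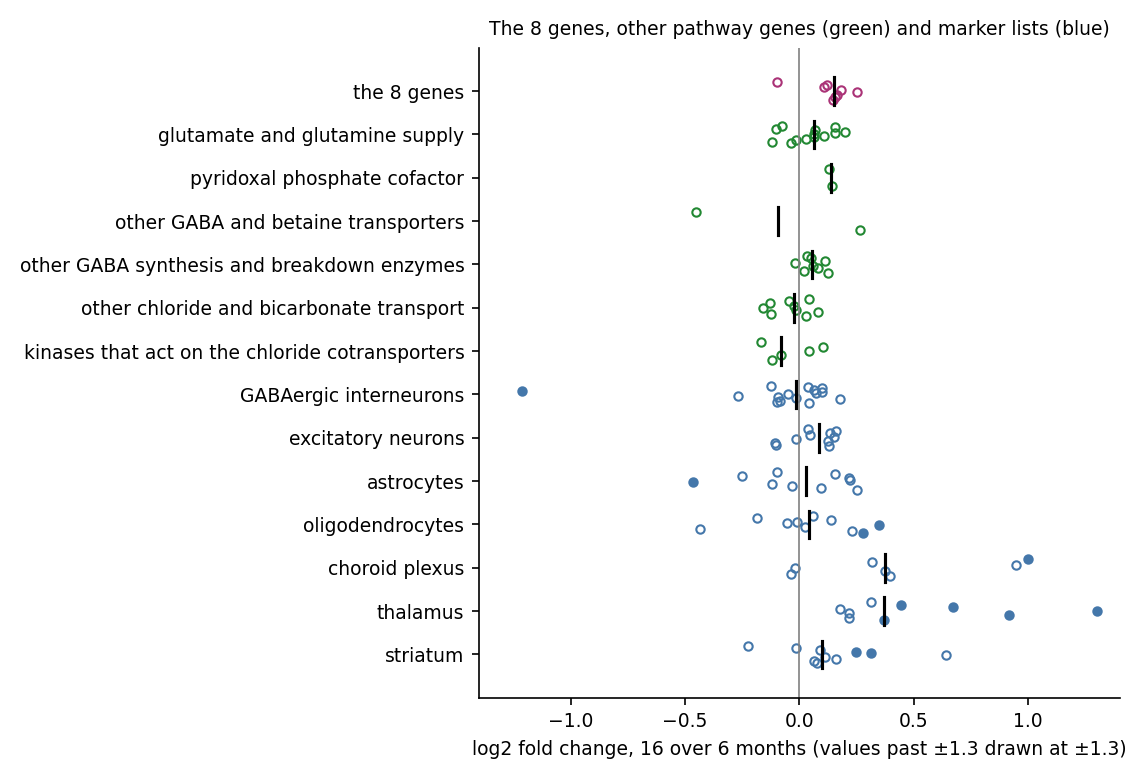
Log2 fold change of 16 over 6 months on the horizontal axis for the 8 genes, 6 lists of other pathway genes (green) and 7 marker lists (blue), with 1 circle for each gene tested, filled where the adjusted p of edgeR is under 0.05, and a bar at the median. The value of Shox2, 4.06, which starts from a level near the floor of 3 counts at 6 months, is drawn at the edge. The 8 genes and the green lists hold no filled circle.

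Lists of markers of other tissues and cell types held calls as well, where 1.67% of all genes were called in edgeR. Prkcd, a kinase of thalamic neurons, read 13.1 ± 0.738 and 24.6 ± 0.449 CPM at 6 and 16 months (SD, n = 3), and Calb2, Shox2, Synpo2 and Tcf7l2 were called higher too, while Slc17a6, the vesicular glutamate transporter of the thalamus, had a log2 fold change of 0.18 with an adjusted p of 0.276 in edgeR. Of 10 striatal markers, 8 had positive fold changes, Pde10a and Penk were called higher, and Ppp1r1b had 0.089. Rgs9 and Tac1, named after their values were seen, had -0.015 and -0.225. With offsets 3 of the striatal list were called higher and 1, Tac1, lower, against 14.2% of all genes called. The summed level went from between 826 and 846 CPM to between 934 and 940 CPM, with Pde10a alone at 226 ± 3.40 and 281 ± 8.18 CPM. The striatum holds neurons that use GABA as their transmitter, and the part of this list in the levels of Gad1, Gad2 and Slc32a1 was not tested. Of 10 oligodendrocyte markers, Cldn11 and Mal were called higher, with log2 fold changes of 0.28 and 0.35, and Mbp, a myelin protein, had -0.054. Ermn of the same list, named after its values were seen, had -0.43 with an adjusted p of 0.0744 in edgeR and groups that did not overlap. With offsets 5 of the oligodendrocyte list were called higher and 2 lower, against 14.2% of all genes called. The summed level of the list differed by 0.015 on the log2 scale. Of 7 choroid plexus markers, Ttr was called higher (8.95 ± 0.573 to 17.8 ± 1.08 CPM), and Enpp2 had -0.036.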

How the data were processed

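Whole cortical hemispheres of 6 samples were sequenced as paired reads from polyadenylated RNA. The authors aligned the reads to mm10 and deposited raw counts per gene, 1 file a sample, with summary lines in the style of HTSeq. The study's methods name STAR and HTSeq with the Ensembl annotation, whereas the submitters' processing notes list CASAVA 1.8.2, STAR 2.3.0e and featureCounts 1.5.0-p1. The strand setting and annotation release were not given in the sources used here. Summary lines, which left 70.8% to 76.5% of uniquely placed reads on genes, were kept out of library sizes and tests.

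Deposited counts of 38355 genes were filtered with filterByExpr, scaled by TMM (factors 0.988 to 1.01) and tested with edgeR 4.0.16 (glmQLFit, glmQLFTest; biological coefficient of variation 6.40%), age being the only term, with Benjamini-Hochberg adjustment over all 17120 genes. The study used DESeq2, run here as an alternative (version 1.42.0). Log2 levels used a prior count of 2. Ratios were compared by exact permutation. Replicates of an age differed by more than sampling noise, and p-values measure only the spread between these samples. Positions, lengths and GC content came from GENCODE M21, which matched 36602 genes. Offsets were computed from 20 bins of GC content and of length. Transcripts were searched for near-identical copies with blastn 2.17.0 (97% identity over 100 bases), and none was found beyond the antisense overlaps given. Scripts were tested on simulated data.

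The 8 genes and all lists were chosen with earlier results of these data known. Named besides the 8 are the genes of a list that edgeR called, the 2 most abundant of each list, those used in ratios and the 3 most like the mean of Gad1, Gad2 and Slc32a1. Some genes that this rule would name are not reported here. The fit with replicate 3 of 16 months as the only older sample was added after seeing the data. The floors of 3 counts cover counting error only, whereas the 95% intervals of the fold changes include the spread between samples.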

Additional observations from a re-analysis of the deposited data

How the results depend on the processing

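Another scaling (DESeq2's size factors or the upper quartile), a stricter filter and a robust fit left the counts of genes called within 1.5 times. All genes called numbered 286, against 648 without a filter, 471 in DESeq2, 2425 with offsets for GC content and length, and 1786 with replicate 3 of 16 months alone. Of the 8 genes 0 were called, against 1, 2, 5 and 3 under these settings, and of the other pathway genes 0 against 1, 2, 9 and 5. Leaving out 1 sample gave 48 to 2211 calls over all genes, 0 to 4 of the 8 and 0 to 7 of the pathway, the highest without replicate 1 (4 of the 8) or 2 (all genes and pathway) of 16 months and the lowest without replicate 3 of 6 months (48). The causes were not tested.

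The log2 fold change of Slc6a11 passed the threshold without a filter (0.25), in DESeq2 (0.25), with offsets (0.21) and with replicate 3 alone (0.26), that of Abat in DESeq2 (0.18), with offsets (0.14) and with replicate 3 alone (0.16), that of Gad2 with offsets (0.16) and replicate 3 alone (0.17), and those of Gad1 (0.12) and Slc32a1 (0.12) with offsets. Leaving out 1 sample gave 0.11 to 0.17 for Gad1, 0.090 to 0.23 for Gad2, 0.065 to 0.25 for Slc32a1, 0.20 to 0.30 for Slc6a11 and 0.16 to 0.19 for Abat. Aldh5a1, Slc12a5 and Slc12a2 passed in 1 setting, below, and no fold change of the 8 reversed.

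The labels do not say that samples with the same number belong together, so the main fit had no block. Deviations of samples with the same number correlated at 0.180, 0.0958 and 0.0351. Those of samples with different numbers correlated at between -0.133 and 0.0379, and whether the numbers pair the samples was not settled. With the replicate block 783 genes were called, 1 of the 8 (Slc6a11, 0.25) and 2 of the pathway. With offsets and the replicate block together it was 3321 genes, 8 of the 8 and 13 of the pathway, with log2 fold changes of 0.12, 0.16, 0.12, 0.21, 0.14, 0.094, 0.066 and -0.11 in the order of roles from Gad1 to Slc12a2.

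Log2 differences of ratios near 0 changed sign. With offsets Slc32a1 over both decarboxylases gave -0.022 and both over Slc17a7 gave 0.024. Leaving out 1 sample gave -0.053 to 0.021 for Gad1 over Gad2, -0.13 to 0.14 for Slc32a1 over both, -0.14 to 0.14 for both over Slc17a7 and -0.017 to 0.012 for Slc6a11 over Aldh1l1. Depth did not limit the 8 genes, the lowest having 1800 counts, whereas 3 samples an age limit what the tests can show.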
